A study of Mus musculus with 8 samples.

Results

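Open chromatin far from any protein-coding gene was examined in group 2 innate lymphoid cells (ILC2s) of the mouse thymus, profiled by ATAC-seq, which maps open DNA by where the Tn5 transposase inserts. Overlapping peaks were merged within each of 4 peak lists, and regions of different lists that overlapped by at least 1 bp were joined into 60835 union regions. Of these, 2790 (4.59%, exact 95% interval 4.42 to 4.76) had their strongest summit over 100 kb from every protein-coding gene body in mm10, and these are called far regions here. The cells came from C57BL/6 mice of the genotype plck-Id1, in which the proximal Lck promoter, active in thymocytes, drives Id1, an inhibitor of E proteins. All groups carried this transgene, were stimulated and expanded in cytokines including IL-7, IL-25 and IL-33, were sorted for GFP and received 4-hydroxytamoxifen. They differed in the retrovirus, which encoded GFP alone (GFP groups) or GFP together with E47-ER (E47 groups), and in the time of treatment, 4 or 16 h. E47-ER fuses E47, one of the E proteins made from Tcf3, with an estrogen receptor part through which tamoxifen switches the protein on. Ages were not given in the sources used here, and neither was the origin of the 2 samples of a group in separate mice or cultures. Each of the 4 groups had 2 samples and 1 deposited peak list made from both, so no value per sample and no test between groups was possible. All shares below carry exact binomial intervals for counting error only, and regions that lie in one gap between genes are not independent of each other.

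The sources disagreed on the vector. Titles and transduction labels gave the groups used here, whereas in the free-text descriptions replicate 1 of every group had the empty vector and replicate 2 had E47-ER. If the descriptions were right, each list would mix both vectors and no contrast below would be one of vectors. Cell type markers were looked up for a region within 1 kb of a gene end. The lists follow in the order E47 at 4 h, E47 at 16 h, GFP at 4 h and GFP at 16 h. Of 12 ILC2 markers, 10, 9, 9 and 10 had such a region. Rora had none in any list, and Icos had one only in the earlier GFP list. That list also lacked one for Il1rl1 and Gata3, and Gata3 had none in the later E47 list either. For T cell markers the counts were 5, 4, 3 and 4 of 8, for B cell markers 2, 2, 2 and 3 of 6, for myeloid markers 3, 2, 2 and 2 of 6, and for NK and ILC1 markers 1, 1, 0 and 1 of 5, in the same order. The T cell markers Cd3d, Cd4 and Cd28 had such a region in every list. The share of all protein-coding genes with such a region was not computed. The counts therefore describe the lists and do not test the cell type labels. The part of other cells in the results was not tested.

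Far regions are of interest because enhancers, the DNA elements that raise transcription of a gene on the same chromosome, can act over very long distances. Genes of cell identity and growth such as Id2, Gata3 and Myc sit beside wide stretches without other protein-coding genes, and in Gata3 and Myc such stretches are known to hold distal enhancers of lymphocytes and other blood cells. E proteins bind the E-box, written CANNTG, and Id proteins block that binding. A gap may also hold genes of other kinds, mainly long non-coding RNAs (lncRNAs), whose promoters are open without being enhancers of a distant gene. Flanking gene names are used below as labels of position and do not say which gene a region regulates.

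Sequences could be read for the far regions that overlap a lncRNA promoter of the RefSeq promoter table (GRCm38.p6, the assembly of mm10), which gives 250 bases before and 50 after each start. There were 60 such regions, at 63 lncRNA genes with 73 promoters. Of these 60 regions, 37 (61.7%, 48.2 to 73.9) were in all 4 lists, against 35.9% (34.1 to 37.7) of the 2730 far regions elsewhere and 48.8% of all union regions. They had a median mean percentile of strength of 51.9 against 29.0, where strength is the rank of a region by its −log10 p within its own list. As union regions they had a median width of 655 bp against 394 bp. Of the 60, 1 was in both E47 lists and neither GFP list (E47-only at both times, as 3.43% of all union regions were). In both GFP lists and neither E47 list were 5 (GFP-only at both times, as 4.56% of all were). Both counts are too small to be set apart from these shares, and no interval was computed for them. The sequences of 5 are shown, each 5′ to 3′ on the strand of the lncRNA, with every CANNTG in capitals: the strongest (Gm26901), those of lncRNAs known from blood or lymphoid cells or from nuclear organisation (Morrbid and Firre), the one E47-only promoter (Gm15323) and one at the strongest GFP-only promoter region (Gm33398).
Gm26901 (chr1:7398047-7398346, minus strand): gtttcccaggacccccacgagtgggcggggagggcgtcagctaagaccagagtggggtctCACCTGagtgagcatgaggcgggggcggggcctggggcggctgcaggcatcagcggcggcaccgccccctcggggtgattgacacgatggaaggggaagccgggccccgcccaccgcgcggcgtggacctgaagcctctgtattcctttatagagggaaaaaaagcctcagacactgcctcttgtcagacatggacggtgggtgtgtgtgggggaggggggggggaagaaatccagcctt
Morrbid (chr2:128429302-128429601, minus strand): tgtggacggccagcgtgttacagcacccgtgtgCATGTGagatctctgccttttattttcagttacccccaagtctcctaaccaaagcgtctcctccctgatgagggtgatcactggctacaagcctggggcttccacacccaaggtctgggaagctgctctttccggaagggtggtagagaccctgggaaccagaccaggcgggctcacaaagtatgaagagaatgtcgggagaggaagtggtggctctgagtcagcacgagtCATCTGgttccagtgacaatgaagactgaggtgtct
Firre (chrX:50635272-50635571, minus strand): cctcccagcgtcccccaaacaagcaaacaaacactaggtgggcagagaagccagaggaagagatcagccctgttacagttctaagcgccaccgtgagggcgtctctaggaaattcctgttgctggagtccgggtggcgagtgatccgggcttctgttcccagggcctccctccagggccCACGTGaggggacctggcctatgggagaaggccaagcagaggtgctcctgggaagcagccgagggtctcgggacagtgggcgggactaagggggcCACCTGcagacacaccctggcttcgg
Gm15323 (chr13:112000759-112001058, plus strand): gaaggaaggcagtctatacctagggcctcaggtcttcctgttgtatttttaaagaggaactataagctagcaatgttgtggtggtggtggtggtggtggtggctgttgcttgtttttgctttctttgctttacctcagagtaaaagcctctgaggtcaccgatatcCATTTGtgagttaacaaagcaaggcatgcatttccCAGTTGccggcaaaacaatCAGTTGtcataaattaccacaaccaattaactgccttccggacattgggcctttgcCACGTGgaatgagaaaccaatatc
Gm33398 (chr7:129764621-129764920, minus strand): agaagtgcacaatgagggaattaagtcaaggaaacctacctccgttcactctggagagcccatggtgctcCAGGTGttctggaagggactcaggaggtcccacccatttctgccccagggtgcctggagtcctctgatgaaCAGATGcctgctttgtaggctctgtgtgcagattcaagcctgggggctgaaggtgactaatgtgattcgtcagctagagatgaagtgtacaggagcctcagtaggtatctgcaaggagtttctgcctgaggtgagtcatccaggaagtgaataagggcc
The region at Gm26901, 907 bp wide between Pcmtd1 and Sntg1, had folds of 17.2, 17.4, 18.0 and 18.8 over background in E47 at 4 h, E47 at 16 h, GFP at 4 h and GFP at 16 h, and its promoter held 18 CpG and 1 CANNTG. The Gm15323 promoter held 4 CANNTG, and the region that overlapped its last 41 bases had folds of 6.94 and 7.34 in the E47 lists. At Gm33398, whose promoter held 2 CANNTG, the folds were 9.18 and 9.98 in the GFP lists. A match of letters is a description of this window and does not show binding.

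Motifs were searched on both strands of the 73 promoters, and for most the share over all lncRNA promoters lay inside the interval of the 73. CANNTG was found in 79.5% (68.4 to 88.0) against 78.4% of 11588 lncRNA promoters and 72.3% of all 32851 promoters. Both E-box forms that were searched are special cases of it: CAGCTG was found in 15.1% against 17.7% of lncRNA promoters and CAGGTG in 15.1% against 21.1%. The GATA letters AGATAA were found in 13.7% against 14.0%, the RUNX letters TGTGGT in 24.7% against 20.0%, and a CTCF motif in 1.37% against 2.58%. The AP-1 letters TGANTCA were in 14 of 73 (19.2%, 10.9 to 30.1) against 9.31% (8.79 to 9.86), and the ETS letters AGGAAG in 37 of 73 (50.7%, 38.7 to 62.6) against 37.1% (36.2 to 38.0). Over all promoters of the table these shares were 7.81% and 35.4%. The 2 intervals did not meet for AP-1 and ETS, although 8 motifs were compared and no test was made. Some of the 73 promoters overlap at one region, as those of Gm4718 and of Gm4258 do, so one motif can count several times. The intervals take the 73 as independent. The background was not limited to open promoters, so whether open lncRNA promoters in general differ in the same way was not tested. GC content was 50.7% in the median promoter, against 48.3% over lncRNA promoters and 56.3% over protein-coding ones.

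Far regions were called less uniformly than regions closer to genes. Of the 2790, 1017 (36.5%, 34.7 to 38.3) were in all 4 lists, against 41.1% (40.4 to 41.9) of the 16013 regions that lay over 1 kb and up to 100 kb outside protein-coding genes, which serve as the comparison throughout, and 48.8% of all union regions. A further 763 (27.3%, 25.7 to 29.0) were in one list only, against 25.4% and 22.3%. By list, 1925, 1463, 1705 and 2197 far regions were called in E47 at 4 h, E47 at 16 h, GFP at 4 h and GFP at 16 h, or 4.07%, 3.83%, 4.21% and 4.42% of the union regions called there. The order of these counts is that of the lengths of the lists, which held 49811, 40649, 42665 and 52846 regions in the same order.

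Regions of one vector at both times were more often GFP-only than E47-only. In both E47 lists and neither GFP list were 114 far regions (4.09%, 3.38 to 4.89), against 4.05% (3.75 to 4.36) of the comparison regions and 3.43% of all union regions. In both GFP lists and neither E47 list were 217 (7.78%, 6.81 to 8.83), against 5.58% (5.23 to 5.94) of the comparison regions and 4.56% of all. The E47-only share was thus close to that of other regions outside genes, whereas the interval of the GFP-only share lay above theirs. Pairs of lists that join the times served as background: 42 far regions (1.51%) were in both 4 h lists alone, against 1.28% of all, and 29 (1.04%) in both 16 h lists alone, against 1.08% of all. The ratio of far regions that separated the vectors to those that separated the times was 4.66, and in the comparison regions it was 3.46.

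With every list shortened to its 40649 strongest regions, 2237 far regions were left. Of these, 956 (42.7%) were in all 4 lists, against 56.1% of all union regions. E47-only at both times were 136 (6.08%, 5.13 to 7.15), against 5.92% of the comparison regions and 4.74% of all. GFP-only were 203 (9.07%, 7.92 to 10.3), against 6.18% (5.77 to 6.60) and 5.01%. The pairs that share neither vector nor time then had 44 (1.97%) and 35 (1.56%), against 1.30% and 1.14% of all. The E47-only part of all vector-separated far regions was 34.4% in the full lists and 40.1% at equal length, against 42.1% and 48.9% in the comparison regions. The GFP-only share of far regions thus lay above that of the comparison regions at either list length, and the E47-only share lay close to it.

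At 4 h, 589 far regions (21.1%, 19.6 to 22.7) were E47-only, against 19.5% of all, and 369 (13.2%, 11.99 to 14.5) GFP-only, against 8.37% of all. At 16 h the balance lay the other way, with 255 E47-only (9.14%, 8.10 to 10.3), against 7.48% of all, and 989 GFP-only (35.4%, 33.7 to 37.3), against 26.4% of all. These counts followed the lengths of the lists. At equal length the 4 h balance turned round, to 324 E47-only (14.5%, 12.2% of all) against 432 GFP-only (19.3%, 12.1% of all), and at 16 h there were 382 (17.1%, 14.5% of all) against 512 (22.9%, 15.1% of all). GFP-only regions were then the more numerous at both times, while in the comparison regions E47-only and GFP-only calls were nearly even, 1882 against 1900 at 4 h and 2246 against 2264 at 16 h. In the full lists, the GFP-only far regions of 4 h stayed so at 16 h in 58.8% of cases (53.6 to 63.9), and the E47-only ones in 19.4% (16.2 to 22.8), close to 55.5% and 18.0% in the comparison regions. At equal length these shares were near each other, 46.99% (42.2 to 51.8) and 42.0% (36.5 to 47.6), against 41.9% and 40.5%.

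**Figure D1:**
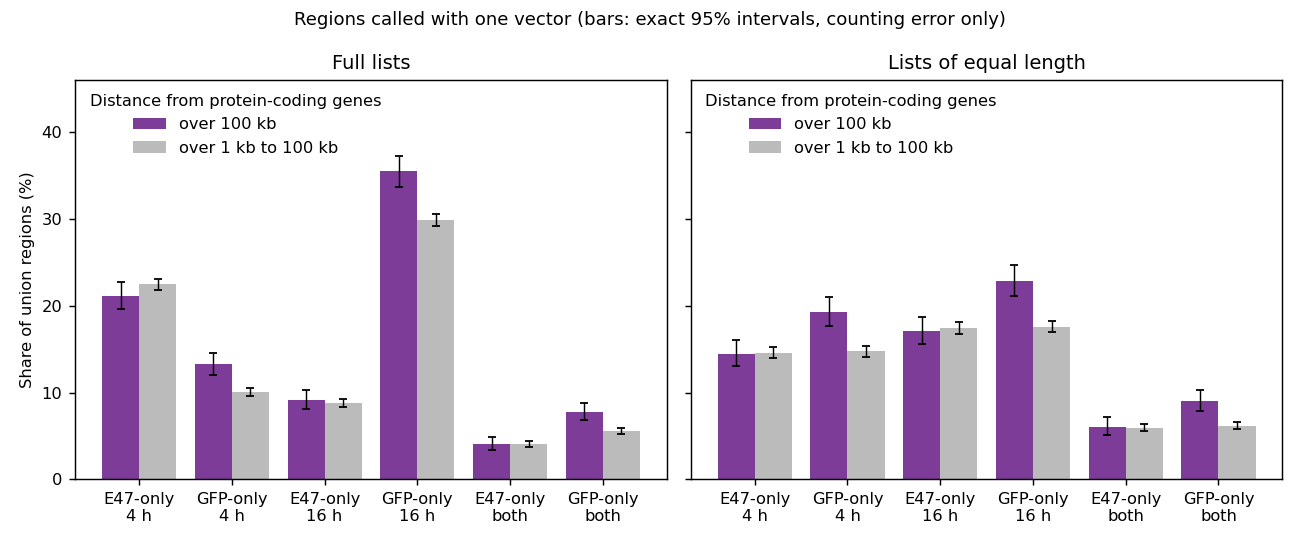
Shares of union regions called with one vector at 4 h, at 16 h or at both times (y axis, percent), for far regions (purple) and regions over 1 kb to 100 kb outside protein-coding genes (grey), in full lists (left) and lists of equal length (right); whiskers are exact 95% intervals. GFP-only shares of far regions lie above the grey bars in both panels (7.78% against 5.58% and 9.07% against 6.18% at both times), and E47-only shares lie close to them.

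The shares were also set out by distance, without a test. The distance to the nearest protein-coding gene had a median of 187 kb, quartiles of 136 and 306 kb and a maximum of 2138 kb, with 1252 regions over 200 kb, 304 over 500 kb and 62 over 1000 kb. From 50 to 100 kb, 6.86% (5.87 to 7.96) of regions were GFP-only at both times, from 100 to 200 kb 6.76% (5.56 to 8.13), from 200 to 500 kb 9.49% (7.70 to 11.5) and beyond 500 kb 7.57% (4.86 to 11.1), against 5.21% (4.66 to 5.80) at 1 to 10 kb. The share in all 4 lists was 40.9%, 38.4%, 34.2% and 33.6% in the same order from 50 kb on. The E47-only share was 4.09%, 4.81%, 3.38% and 2.63%. The intervals of the bins beyond 100 kb overlap for both vectors, and the GFP-only share shows no steady trend there. At the threshold itself, the region just inside lay 100095 bp from a gene between Ralgapa2 and Kiz and was in 1 list, and the one just outside lay 99904 bp away between Postn and Supt20 and was in 4.

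**Figure D2:**
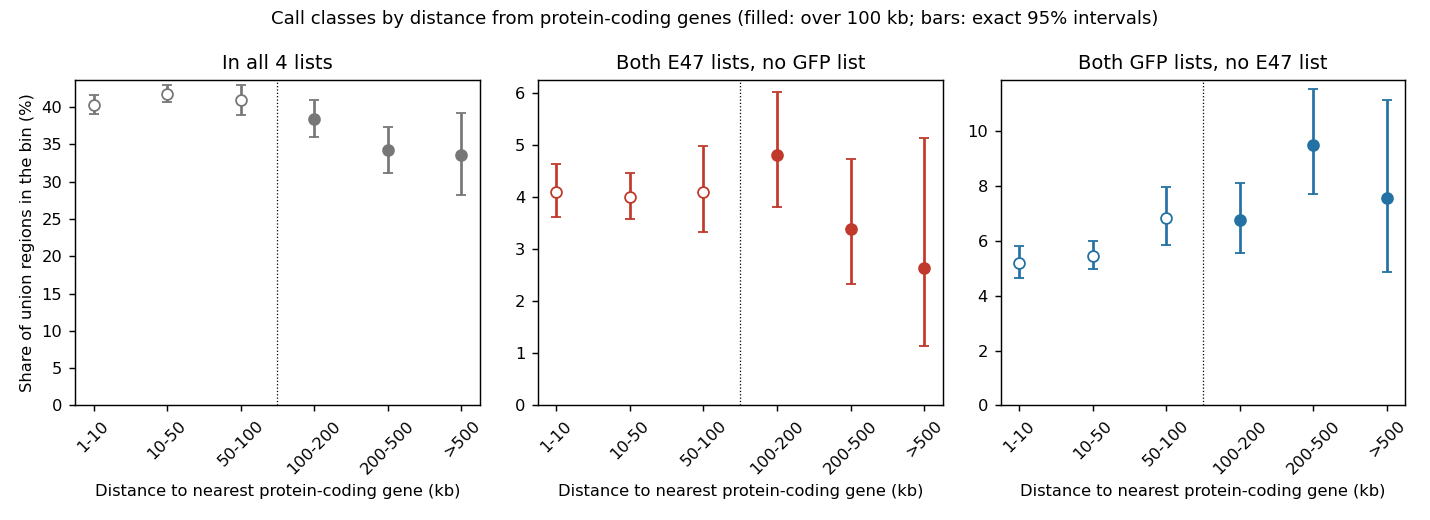
Share of union regions in each distance bin (x axis, kb from the nearest protein-coding gene) that were in all 4 lists, in both E47 lists only or in both GFP lists only (y axes, percent, from 0); filled points are far regions and whiskers are exact 95% intervals. The share in all 4 lists is 40.9% at 50 to 100 kb and 33.6% beyond 500 kb, and the GFP-only share is highest at 200 to 500 kb (9.49%).

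As a class, far regions lay close in strength to the other regions outside genes. Their median percentile of strength was 41.0, 38.0, 40.3 and 42.8 in the 4 lists (E47 at 4 h, E47 at 16 h, GFP at 4 h, GFP at 16 h), against 41.8, 40.01, 39.9 and 42.1 for the comparison regions. Median folds were 8.58, 8.64, 8.73 and 9.26 against 8.25, 8.30, 8.10 and 8.53, and median widths 387, 381, 376 and 372 bp against 339, 346, 337 and 324 bp. The regions that set the vectors apart were weak. Their mean percentile had a median of 23.0 for E47-only and 24.2 for GFP-only, against 56.4 for far regions in all 4 lists. Above the median strength in both of their lists were 6 of 114 E47-only (5.26%, 1.96 to 11.1) and 6 of 217 GFP-only far regions (2.76%, 1.02 to 5.92). In the comparison regions these were 49 of 648 (7.56%, 5.65 to 9.87) and 18 of 893 (2.02%, 1.20 to 3.17). The weakness of regions called with one vector was thus not particular to far regions. A region that was not called in a list may still have been open there below the threshold.

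A minority of these regions lay close to shared ones. The median distance from an E47-only far region to the nearest region in all 4 lists was 16.9 kb, and 13 of 114 (11.4%, 6.21 to 18.7) lay within 200 bp of one. For GFP-only far regions the median was 37.7 kb, and 8 of 217 (3.69%, 1.60 to 7.13) lay within 200 bp. In the comparison regions the medians were shorter, 10.1 and 10.5 kb, and the shares within 200 bp were 6.94% (5.11 to 9.18) and 4.14% (2.93 to 5.67).

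Of the 1689 gaps between neighbouring protein-coding genes that hold space over 100 kb from both, 785 Mb in all, 546 (32.3%) held a far region, or 3.52 regions per Mb. Gaps with 10 or more numbered 81 and held 1523 far regions (54.6%), while 200 gaps held 1, and 278 far regions (9.96%) had no union region within 100 kb. The largest gap without any lay between Pcdh20 and Pcdh9 (4.54 Mb), a pair of protocadherin genes. Chromosome 12 held 304 far regions, 11.3% (10.2 to 12.6) of all its regions, and chromosome 7 held 35, or 0.872% (0.608 to 1.21). The space over 100 kb from genes differs between them, 45.1 and 27.5 Mb. Per Mb of it, chromosome 12 held 6.74 far regions and chromosome 7 1.27, while chromosome 10 held 7.53. The 785 Mb include 47.3 Mb of chromosome Y, which held 0.

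**Figure D3:**
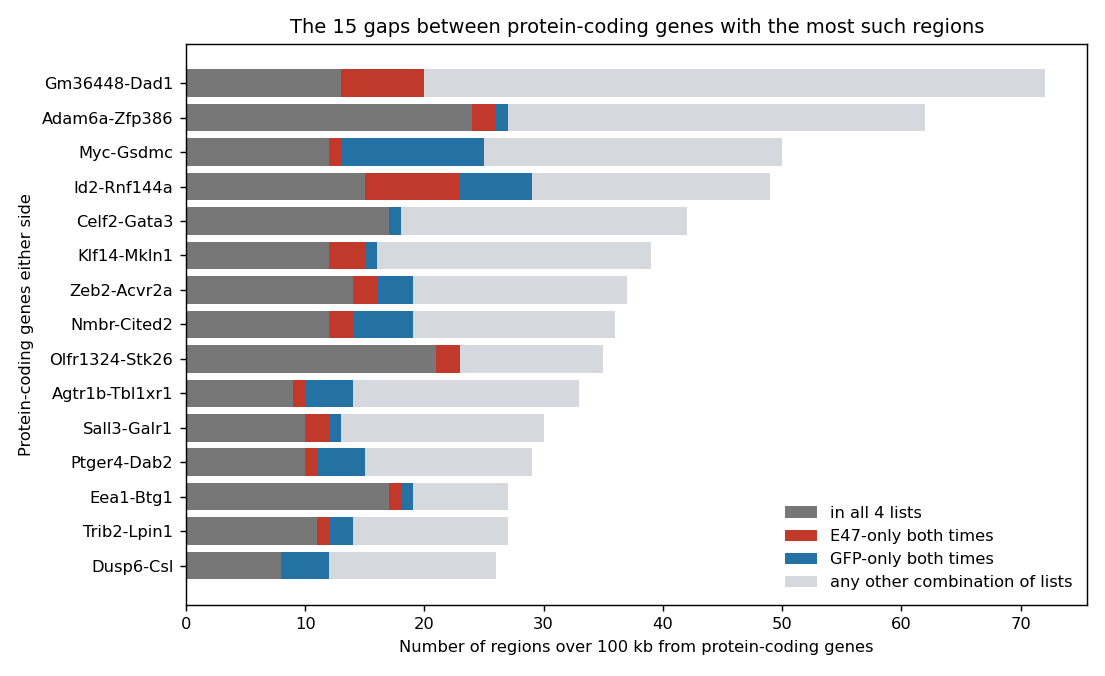
Far regions in the 15 gaps that hold most (x axis, number of regions; y axis, the protein-coding genes on either side), split by the lists in which they were called. The gap between Gm36448 and Dad1 leads with 72, E47-only regions are most numerous at Id2-Rnf144a (8) and Gm36448-Dad1 (7), and GFP-only regions at Myc-Gsdmc (12).

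The gap between Gm36448 and Dad1 on chromosome 14 holds the T cell receptor α and δ locus, with 127 receptor gene segments or related entries in the stretch that the far regions span. E proteins are known activators of antigen receptor loci. It held 72 far regions, of which 59, 39, 29 and 41 were called in E47 at 4 h, E47 at 16 h, GFP at 4 h and GFP at 16 h. In all 4 lists were 13, E47-only at both times were 7 and GFP-only 0. As background for this and the gaps below, 4.09% of all far regions were E47-only and 7.78% GFP-only. Over all union regions the shares were 3.43% and 4.56%. At equal list length they were 6.08% and 9.07% of far regions, and 4.74% and 5.01% of all. The count was highest in E47 at 4 h, and E47 at 16 h and GFP at 16 h had nearly equal counts. At equal list length the counts were 44, 39, 25 and 24 of 57 far regions, with 13 E47-only and 0 GFP-only. The E47 lists then held more than either GFP list. The strongest E47-only region here by rank (chr14:52863889-52864316) had folds of 8.91 and 9.30, and another (chr14:53599310-53599807) had 10.5 and 13.9. The strongest region in all lists (chr14:53350845-53351827) had folds of 18.3, 16.4, 17.6 and 18.7. Sequences of the receptor segments are similar to one another, so reads may be shared between them.

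The gap between Adam6a and Zfp386 on chromosome 12, over the variable segments of the immunoglobulin heavy chain locus, held 62 far regions and behaved in another way. Its counts were 49, 41, 40 and 46, with 24 in all 4 lists, 2 E47-only and 1 GFP-only. The strongest E47-only region (chr12:115023563-115024328) had folds of 14.6 and 13.7. In all, 138 far regions (4.95%) had an antigen receptor segment within 100 kb.

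Id2, which encodes an Id protein that ILC2s need, is followed by a gap of 1.21 Mb to Rnf144a. It held 49 far regions, called 38, 28, 28 and 33 times in the lists of E47 at 4 h, E47 at 16 h, GFP at 4 h and GFP at 16 h, with 15 in all 4 lists. E47-only at both times were 8, the most of any gap in the full lists, and GFP-only 6. All 8 E47-only regions lay 124 to 267 kb from Id2, while the 6 GFP-only regions lay 104 to 1083 kb away. Up to 300 kb from Id2, a limit chosen after the values were seen, the 4 lists called 22, 19, 10 and 12 of 27 far regions. Beyond it they called 16, 9, 18 and 21 of 22. In these full lists the E47 lists called more regions near Id2 and the GFP lists more farther out. Of all far regions, the 4 lists called 69.0%, 52.4%, 61.1% and 78.7% in the same order. The limit encloses all 8 E47-only regions, so the counts on either side describe these calls and test nothing. The split was not made at equal list length. The 8 E47-only regions were weak, with folds of 3.28 to 7.23. The strongest of them by rank (chr12:25266765-25267200, folds of 4.57 and 4.79) lay next to the strongest region of the gap (chr12:25267484-25268745), which was in all lists with folds of 11.7, 11.5, 14.1 and 14.7. At equal list length 5 E47-only and 4 GFP-only regions were left, and the T cell receptor gap, with 13, then held most E47-only regions.

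Myc, the growth regulator, has a gap of 1.79 Mb to Gsdmc. The gap held 50 far regions, called 21, 18, 31 and 42 times in the same order, of which 12 were in all lists, 1 was E47-only and 12 were GFP-only, the most of any gap, also at equal list length. Inside Pvt1, the lncRNA gene beside Myc, lay 15 far regions, 8 of them in all lists and none called with one vector at both times. Of the 35 farther out, the E47 lists called 10 and 9 and the GFP lists 23 and 28. Over all far regions the E47 lists called 69.0% and 52.4%, and the GFP lists 61.1% and 78.7%. The end of Pvt1 leaves all 12 GFP-only regions on one side, so this split describes the calls and tests nothing. It was not made at equal list length. The GFP-only regions lay 335 to 1667 kb from Myc and included 3 at its far end, 1664.5 to 1667 kb away. In the strongest (chr15:62388153-62388586) the fold was 11.5 in GFP at 4 h and 17.2 in GFP at 16 h, and a second one (chr15:62325440-62325874) had 9.13 and 14.3. The single E47-only region (chr15:62458050-62458475) had folds of 6.29 and 5.74. At equal list length the counts were 20, 18, 29 and 28, with 2 E47-only and 9 GFP-only regions. Without this gap 205 of 2740 far regions were GFP-only at both times (7.48%).

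The gap from Celf2 to Gata3, the gene of the main ILC2 transcription factor, had 1 region called with one vector at both times. It held 42 far regions, called 31, 20, 27 and 35 times in the same order, with 17 in all lists, 0 E47-only and 1 GFP-only. At equal list length 34 were left, again with 0 and 1. Low counts were not particular to this gap. In the full lists, Ets1-Kirrel3 had 0 and 0 of 20 far regions, and Eea1-Btg1 had 1 and 1 of 27. The strongest (chr2:9593768-9594494), 263 kb from Gata3, had folds of 19.2, 17.1, 16.9 and 18.6, which are close in the 4 lists. At 715 kb a region 1615 bp wide had folds of 11.9, 12.8, 11.7 and 14.2.

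**Figure D4:**
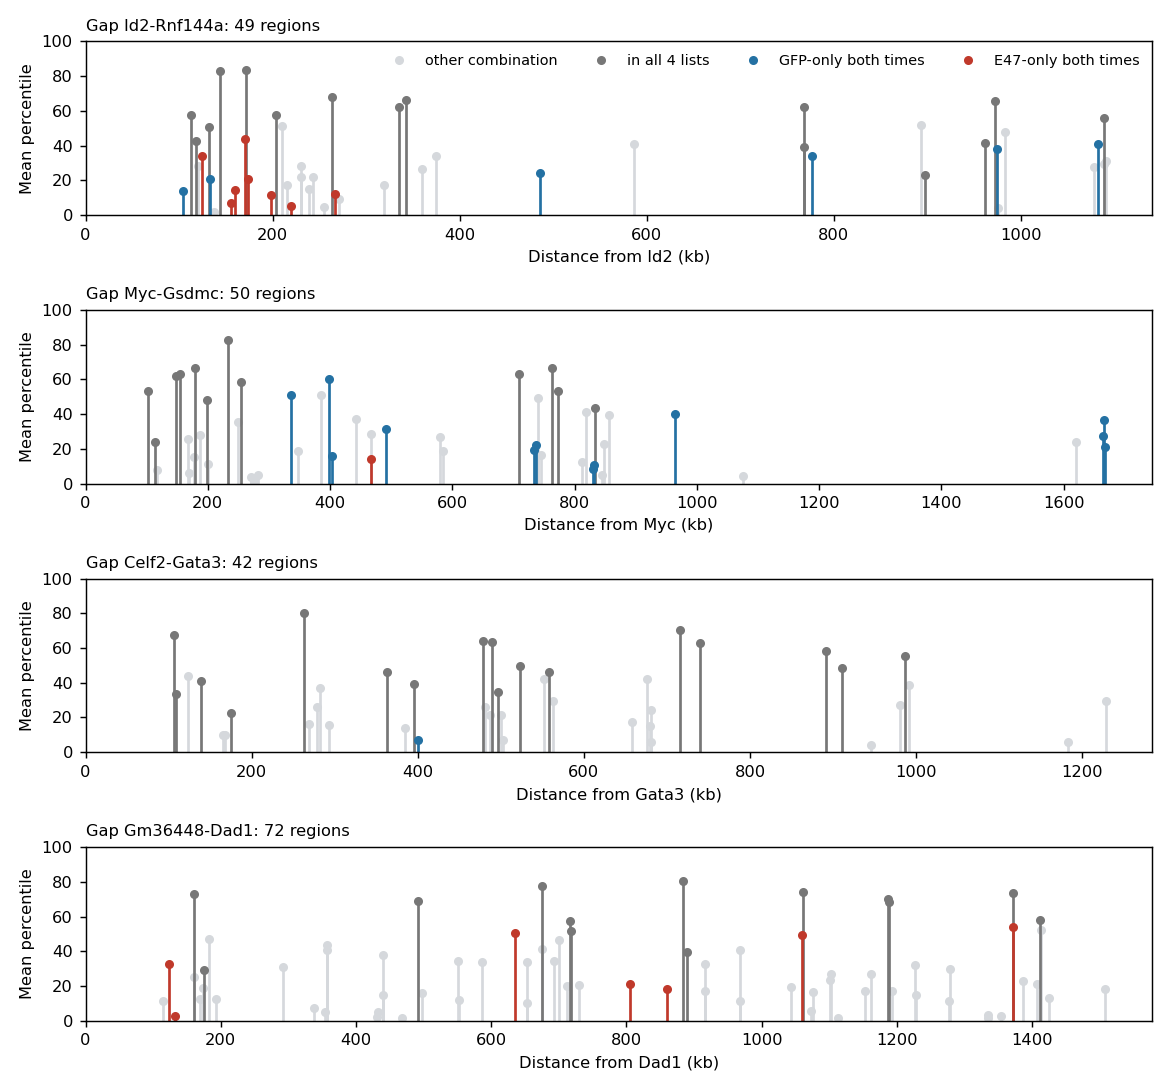
Far regions of 4 gaps by distance from the named gene (x axes, kb) and by strength (y axes, mean percentile of −log10 p over the lists that called the region), coloured by the lists in which they were called. E47-only regions (red) cluster at 124 to 267 kb from Id2, GFP-only regions (blue) lie 335 to 1667 kb from Myc, and the T cell receptor gap beside Dad1 has 7 red and no blue.

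Several gaps with many far regions are those of lncRNA genes. Of all far summits, 746 (26.7%, 25.1 to 28.4) lay inside a lncRNA gene, against 18.8% (18.2 to 19.4) of the comparison regions and 20.9% (20.1 to 21.7) of those 10 to 100 kb from genes. Firre, an X-linked lncRNA known for its role in nuclear architecture, held 30 summits in 72.2 kb, called 26, 23, 22 and 23 times in E47 at 4 h, E47 at 16 h, GFP at 4 h and GFP at 16 h, with 17 in all lists. Its strongest region (chrX:50622728-50623464) had folds of 10.4, 10.7, 10.5 and 11.5, and the 2 E47-only ones had folds of 4.23 to 4.39. Firre is known to hold repeated sequence, so reads may be shared between its regions. Morrbid, a lncRNA known to control the death gene Bcl2l11 in myeloid and lymphoid cells, held 17 summits, 5 in all lists, 0 E47-only and 2 GFP-only. The region at its promoter, shown above, had folds of 8.53, 8.95, 8.38 and 7.51. The gap between Bcl2l11 and Spdye4c held 24 in all, called 16, 9, 18 and 20 times, with 0 E47-only and 4 GFP-only. At equal length these counts became 12, 9, 17 and 13, with 1 E47-only and 3 GFP-only.

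Lncpint and the miR-29 genes lie in the gap between Klf14 and Mkln1, which held 39 far regions, 12 in all lists, 3 E47-only and 1 GFP-only. The strongest (chr6:31065396-31065879) lay 2303 bp from the hairpin of Mir29b-1 and 2649 bp from that of Mir29a, and had folds of 17.5, 15.9, 14.5 and 13.9. Both hairpins give a mature miRNA of the miR-29 family, known for targets among collagen and other matrix genes. The sequences are shown because this is the strongest far region beside a miRNA of known function; capitals mark the seed, bases 2 to 8, which the pair shares.
miR-29a-3p: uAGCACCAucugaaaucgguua
miR-29b-3p: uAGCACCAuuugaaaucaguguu
A weaker far region (chr6:31063247-31063364) lay nearer to these hairpins, 154 bp from Mir29b-1 and 500 bp from Mir29a. It was called in GFP at 4 h alone, with a fold of 3.90. Of 1005 hairpins in the table, 13 lay within 5 kb of a far region. Among the others was Mir6363, 4959 bp from the region at the promoter of the lncRNA Dubr, which was in all lists with folds of 13.1, 14.0, 12.7 and 12.4.

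The 8 strongest far regions were 150 to 460 bp wide and lay 141 to 1766 kb from the nearest protein-coding gene, 3 of them nearer than the median far region. First was a region of 414 bp between Flrt2 and Galc (chr12:97061410-97061823), 1141 kb from the nearest gene, with folds of 52.1, 52.5, 52.9 and 52.3. Second was one of 431 bp between Pcdh7 and G6pd2 (chr5:60042687-60043117) with folds of 57.5, 57.9, 57.4 and 58.7. A pair between Ptprd and Tyrp1 followed, the stronger (chr4:80002733-80003021) with folds of 49.6, 51.8, 49.5 and 51.1. The other 4 of the 8 strongest lay between Rap2b and Arhgef26 (54.6 to 58.9), between Nxph1 and Ndufa4 (63.4 to 71.2), and on either side of Gm10573 (64.1 to 74.3, and 63.7 to 73.4). None of these 8 summits lay in a gene of the table. The regions on either side of Gm10573 were 167 and 168 bp wide. Whether reads are shared between these regions, or with similar sequence elsewhere, was not tested. The processing steps named for the lists include no filter for such regions. High folds from open DNA and from shared reads thus cannot be told apart here. The farthest region of all, between Cntnap5b and Cdh20 (chr1:102628062-102628362), 2138 kb from the nearer gene, was 301 bp wide, with folds of 43.2, 46.5, 51.5 and 49.0.

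Folds over 25 in all 4 lists were found for 15 of the 1017 far regions in all lists (1.47%, 0.828 to 2.42), against 34 of 6584 comparison regions (0.516%, 0.358 to 0.721). Of all regions inside or within 100 kb of protein-coding genes and in all lists, 209 of 28650 had such folds (0.729%, 0.634 to 0.835). That interval meets the interval of the far regions. The threshold of 25 was chosen after the values were seen. As union regions, these 15 had a median width of 307 bp, against 609 bp for the rest of the 1017. Shared reads were not tested for them either. Of the 5 farthest regions, the one between Pcdh7 and G6pd2 is among the strongest given above, while 3 between Olfm4 and Pcdh17 had folds of 6.31 to 7.05 in the lists that called them.

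**Figure D5:**
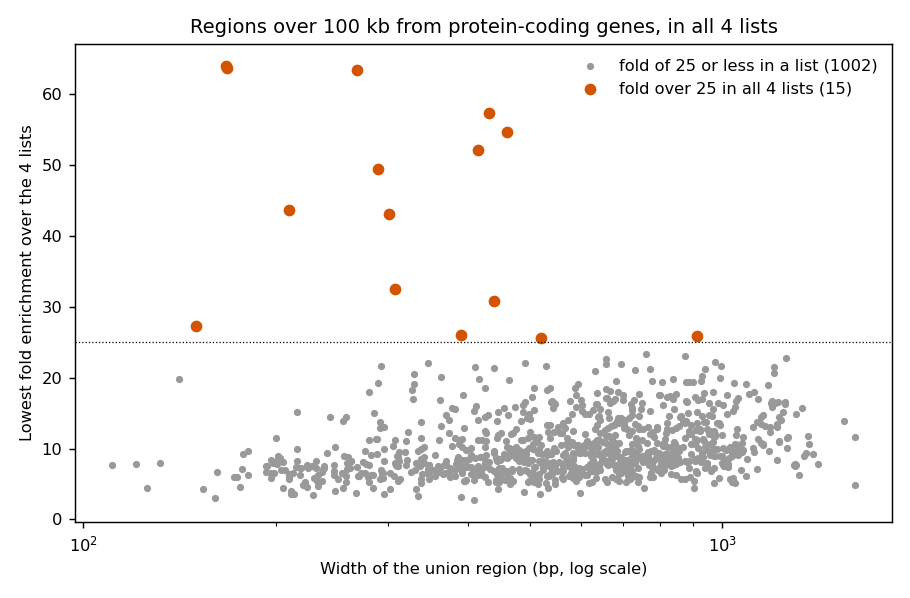
Width (x axis, bp, log scale) and lowest fold enrichment over the 4 lists (y axis) of the 1017 far regions in all lists; orange points are the 15 with a fold over 25 in every list. The orange points reach a fold of 64.1 at widths of 150 to 912 bp.

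The strongest far regions called with one vector at both times lay in other gaps. Among E47-only ones, the first (chr2:46370837-46371409), 1254 kb from Zeb2, a zinc finger repressor gene of lymphoid cells, had folds of 17.9 and 18.6 and a mean percentile of 73.5. Next were the region over the heavy chain locus given above and one between Trib2 and Lpin1 (chr12:16008168-16009023), with folds of 11.2 and 9.40. One inside the lncRNA 2610307P16Rik (chr13:28512536-28513219), 436 kb from Sox4, a transcription factor gene of lymphoid precursors, had folds of 13.5 and 13.9. It was one of 3 E47-only regions among 8 far regions of its gap, with 0 GFP-only. The fifth (chr16:51690683-51691279), 340 kb from Cblb, a ubiquitin ligase gene that restrains lymphocyte activation, had folds of 13.4 and 15.7.

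Among GFP-only far regions, the first (chr5:75416955-75417318) lay 158 kb from Kit, the stem cell factor receptor gene, and 219 kb from Pdgfra, where the fold was 14.6 in the earlier and 16.3 in the later GFP list. The next lay between Depdc1b and Pde4d (chr13:108528972-108529585, folds of 12.2 and 13.3), in the Myc gap, between Pard3 and Nrp1 (chr8:127799711-127800599, 11.97 and 13.6), between Cyria and Mycn (chr12:12712524-12712907, 12.7 and 15.6) and between Cacna1e and Ier5 (chr1:154990289-154990785, 10.7 and 16.3). Each of the 6 had the higher fold at 16 h, in the longer list. E47-only far regions lay in 80 gaps and GFP-only ones in 137. Both kinds lay in 29 gaps, which were 36.3% of the former and 21.2% of the latter.

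Gene groups were then described by the far regions for which a member is the next gene on either side. Of all 21900 protein-coding genes, 1018 (4.65%) were next to a far region, and of all far regions 36.5% were in all lists, 4.09% E47-only and 7.78% GFP-only, which serve as the background of each group. ILC2 and innate lymphoid transcription factors had 241 far regions at 10 of 18 genes, of which 88 (36.5%) were in all lists, 14 E47-only (5.81%) and 19 GFP-only (7.88%), with Id2 (49), Gata3 (42) and Zeb2 (37) holding most. Their strongest beside Zeb2 (chr2:48473049-48473915) lay 3356 kb from it, nearer to Acvr2a, with folds of 15.7, 14.9, 13.8 and 15.1. T cell transcription factors had 88 at 9 of 20 genes, 34 in all lists, 6 E47-only (6.82%) and 5 GFP-only (5.68%). Satb1, a chromatin organiser of thymocytes, had 20 (0 E47-only, 1 GFP-only), Foxo1, a regulator of lymphocyte homing and survival, 19 (1 and 2) and Hes1, a Notch target, 13 (0 and 0). The strongest at Foxo1 (chr3:52554875-52555532) had folds of 25.6, 25.04, 22.6 and 26.0. E protein and Id genes had 61 at 3 of 12 genes, with 8 E47-only and 8 GFP-only (13.1% each), of which the Id2 gap held 8 and 6. Beside Id2 these were Tcf4, the gene of the E protein E2-2, with 11, and Runx1t1 with 1. The strongest at Tcf4 was in all lists. Its folds were 8.90 (4 h) and 7.20 (16 h) with E47, and 15.6 (4 h) and 18.5 (16 h) with GFP. Folds belong to their own list of unknown read depth, so a difference between vectors at this region was not tested.

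Growth and survival genes had 121 far regions at 6 of 15 genes, 40 in all lists, 4 E47-only (3.31%) and 20 GFP-only (16.5%). Myc accounted for 60 of them with 12 GFP-only, Bcl2l11 for 24 with 4, and Mycn for 14 with 2, so that most of the GFP-only regions of this group lay beside Myc. AP-1, Nr4a and Egr genes had 18 at 3 of 17 genes, 2 E47-only (11.1%) and 0 GFP-only, 15 of the 18 beside Jun. The strongest at Jun (chr4:95160938-95161930) had folds of 21.5, 19.9, 23.3 and 23.2. Adhesion, migration and surface genes had 29 at 4 of 20 genes, 0 E47-only and 3 GFP-only (10.3%), with Cxcr4 (10), a chemokine receptor, Icos (8), a costimulatory receptor, and Itga4 (8), an integrin chain. The strongest at Itga4 (chr2:79099515-79100149) was in all lists, with E47 folds of 12.9 (4 h) and 7.74 (16 h) and GFP folds of 14.4 (4 h) and 19.2 (16 h).

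Of 24 cytokine and cytokine receptor genes, 1 (4.17%, near the share over all genes), Ifng, had 2 far regions, neither of them called with one vector at both times. Of genes of other lineages, the 8 B cell genes had 0. The 10 myeloid and dendritic cell genes had 55 with 8 E47-only (14.5%) and 6 GFP-only (10.9%), of which Id2, which is also on this list, held 49 with all 8 and 6. Cebpb held 4 and Irf8 2. Of 10 mast cell and progenitor genes, Kit had 9 (6 in all lists, 1 E47-only and 1 GFP-only) and Meis1 4. Neural cadherin, adhesion and synapse genes had 84 at 21 of 32 genes in the table, 26 in all lists, 3 E47-only (3.57%) and 7 GFP-only (8.33%), with 24 beside Adgrl2 and 9 beside Cntn3. The strongest beside Adgrl2 (chr3:149338590-149339739) had folds of 15.5, 16.4, 17.2 and 14.4. Developmental transcription factors of gene deserts had 25 at 12 of 33 genes, 0 E47-only and 2 GFP-only, with Bcl11a (8), Tshz2 (4) and Foxp1 (3). The share in all lists was 29.5% to 46.2% in the 10 groups with more than 2 far regions, beside 36.5% of all far regions.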

How the data were processed

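Chromatin accessibility was measured by ATAC-seq in 8 samples that form 4 groups of 2. Groups were taken from the sample titles. The submitters' processing notes name the build mm10 and the tools MACS2, Bowtie2, DiffBind and cutadapt, without settings or roles. The authors deposited 1 peak list for each group. Its name gives it as conservative peaks of an irreproducible discovery rate procedure and, as named there, reads had been trimmed, both samples pooled, mitochondrial reads and duplicates removed and Tn5 insertion adjusted for. Each deposited line gives a score (540 to 1000, not used here), a fold enrichment (a ratio over background), the −log10 of p and of q, of which only that of p was used, and a summit. The lowest deposited −log10 p was 2.00. These values belong to their own list and served to rank regions within it. The read depth behind a list is unknown, and longer lists can come from deeper libraries or closer replicates.

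Overlapping lines of a list were merged, regions of different lists sharing 1 bp were linked, and the summit of the line with the highest −log10 p was placed against 21900 protein-coding genes of a RefSeq table (GRCm38.p6). To express strength, regions were ranked by −log10 p in each list, and the percentile was averaged over the lists that called it. A region is E47-only at both times when both E47 lists and neither GFP list called it. Intervals are exact (Clopper-Pearson, 95%) and cover counting error only. No genome was given, so the planned motif search in far regions was replaced by one in lncRNA promoters. Named regions are the 8 strongest in all lists, the 6 strongest E47-only and GFP-only ones, the 5 farthest, the 5 gaps with most far regions, and up to 3 genes of each of 12 gene lists; other gaps, the lncRNAs and the miRNAs were chosen after their values were seen. The members and lists were chosen with earlier results of these data known. Merging, linking and placing were tested on simulated data. Alternatives changed the distance, the genes, the linking and the list length. Scripts ran in Python 3.11.15; intervals came from scipy 1.17.1, tables from pandas 2.3.3 and numpy 2.4.6, figures from matplotlib 3.10.9.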

Additional observations from a re-analysis of the deposited data

Results flagged for a closer look

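The excess of one vector among far regions had opposite signs at the 2 times. At 4 h, E47-only far regions exceeded GFP-only ones by 220, whereas at 16 h the same subtraction gave -734. No test of this change was possible with 1 list in each group, so the difference was not tested. The E47 list is the longer at 4 h (49811 against 42665 regions) and the shorter at 16 h (40649 against 52846), and at equal list length the balance was -108 at 4 h and -130 at 16 h.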

How the results depend on the processing

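No paired analysis was possible because each list was made from both samples of a group, and for the same reason no replicate could be left out. Of 132 alternative values, 90 stayed within the interval or the range set for them, 38 moved and 4 reversed; the cause was not tested. Shares are in percent of the far regions, and differences are E47-only minus GFP-only in percentage points.

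With a distance over 50 kb there were 5138 regions, of which 38.5% were in all 4 lists and 33.6% GFP-only at 16 h. Over 200 kb there were 1252, with 34.0% in all lists, 9.03% GFP-only against 3.19% E47-only at both times (difference -5.83), and 19.6% E47-only and 15.3% GFP-only at 4 h (difference 4.23). The ratio of their median fold to that of all other union regions was 1.03, on the other side of 1 from the main 0.991. With genes of every kind deciding the distance, 274 regions were left, 10.6% GFP-only against 3.28% E47-only at both times (difference -7.30), 16.4% E47-only and 16.8% GFP-only at 4 h, and 8.03% and 39.4% at 16 h. The 4 h difference was then -0.365, reversed from 7.89. Linking regions up to 200 bp apart gave 38.4% in all lists.

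At equal list length, 42.7% were in all lists, 9.07% GFP-only against 6.08% E47-only at both times, 14.5% E47-only and 19.3% GFP-only at 4 h and 17.1% and 22.9% at 16 h. The 4 h difference reversed to -4.83, and that at 16 h was -5.81 against -26.3. Of the 1090 far regions above the median strength of a list, 38.8% were in all lists, 8.90% GFP-only at both times, 10% GFP-only at 4 h (difference 12.1), 5.78% E47-only and 41.1% GFP-only at 16 h. Far regions in all 4 lists had a median width of 445 bp, against 379 bp. Against all other union regions the strength of far regions differed by -9.96 percentile points. Against only those over 1 kb from genes, the comparison used in the report, it differed by -0.464 and the fold ratio was 1.06, reversed from 0.991. Because read depth is unknown and regions are called or not called per list, a region absent from a list cannot be told apart from one below its threshold.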
